A study of Mus musculus with 13 samples.

Results

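The 10 genes described here encode the regulatory proteins of the muscle thin filament. They are the tropomyosins Tpm1, Tpm2, Tpm3 and Tpm4, the troponin T genes Tnnt1, Tnnt2 and Tnnt3, the troponin I genes Tnni1 and Tnni3, and the troponin C gene Tnnc1. They were chosen by name, not by a measured value, from the 55487 gene IDs of the count table, and all 10 passed the filter on low counts. The RNA came from pacemaker cells (PC), the heart's own rhythm generators in the sinoatrial node, and from the working muscle beside them, right atrial cardiomyocytes (RACM). Both cell types were flow-sorted from neonatal mouse hearts of the genotype Hcn4-GFP/Myh6-mCherry, so every group carried a reporter named for the pacemaker channel gene Hcn4 and another named for the cardiac myosin gene Myh6. Each replicate pooled the junction of node and atrium from 8 to 10 hearts, and each cell type had 3 libraries, titled p0, p2 and p4. The labels describe the RNA samples only as neonatal and leave the p number unexplained, so it is used here as a number only.

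Tropomyosin is a coiled coil that lies along actin and covers the sites where myosin binds. The troponin complex holds it there: troponin T anchors the complex to tropomyosin, troponin I inhibits, and troponin C binds calcium and lifts the inhibition. In the mouse heart Tpm1, Tnnt2, Tnni3 and Tnnc1 are the main adult genes, Tnni1 is the form of the fetal heart that gives way to Tnni3 after birth, and Tpm3 and Tpm4 also serve the cytoskeleton of non-muscle cells.

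Total counts lay between 14141151 and 22290996 per library. Of 9 pacemaker markers, 9 were higher in PC by the edgeR test. Hcn4 is among them, and its reporter was part of the sort. Of 9 working atrial markers, 5 were lower and 0 higher in PC by that test. Myl7 and Myl4 of that list did not pass but held more CPM in every PC library than in any RACM library. Summed, the atrial markers overlapped, at 18351, 16864 and 21075 CPM in PC and 19425, 17891 and 18486 CPM in RACM. The pacemaker markers thus went with the labels, and the atrial markers did so only in part. Markers of other cell types differed too, and the RACM p4 library stood apart in them. Summed over 10 fibroblast markers, PC libraries p0, p2 and p4 held 951, 1076 and 2324 CPM (counts scaled to the size of the library, here by TMM), and RACM libraries 1877, 4098 and 11485 CPM. Summed over 10 macrophage markers, PC libraries held 27.8, 10.9 and 49.6 CPM and RACM libraries 173, 450 and 783 CPM. In bulk samples such as these, fewer cells of a type and less RNA per cell cannot be told apart. The labels call the pools biological replicates, and p-values here measure the spread between these libraries.

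In the comparison of PC with RACM, 1 of the 10 genes passed the edgeR test, Tpm1, which was higher in PC. Among all 18015 genes tested, 7.27% passed, 3.69% higher and 3.57% lower in PC, so 1 of 10 is near the share for genes at large. With the p number as a replicate block, 3 of the 10 passed: Tpm1 and Tnnt2 were higher in PC and Tpm4 was lower, against 11.6% of all genes (5.96% higher, 5.6% lower). PC and RACM libraries did not overlap for 4 of the 10, higher in PC for Tpm1 and Tnnt2 and lower for Tpm2 and Tpm4, against 26.9% of all genes (13.5% higher, 13.4% lower). The median log2 fold change of PC over RACM was 0.25 for the 10 genes and 0.0064 for all genes tested.

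**Figure D1:**
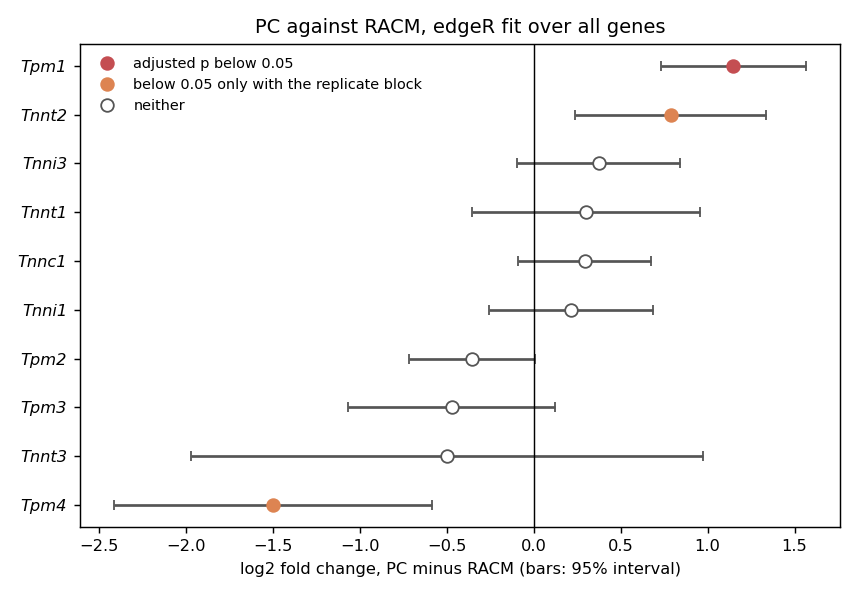
Log2 fold change of PC over RACM for each of the 10 genes, from the edgeR fit over all genes, with 95% intervals from 3 libraries of each cell type. The interval of Tpm1, from 0.73 to 1.57, and that of Tnnt2, from 0.24 to 1.34, lie above 0, that of Tpm4, from -2.41 to -0.59, lies below 0, and the other 7 include it.

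Tpm1, the main tropomyosin of striated muscle, was about 2-fold higher in pacemaker cells. The gene (ENSMUSG00000032366) lies on the minus strand of mm10 at chr9:67022590-67049406. PC libraries p0, p2 and p4 held 14403, 12390 and 14688 CPM, and RACM libraries 6627, 6021 and 6072 CPM. Every PC library was above every RACM library, and the 3 RACM libraries lay close together. The means were 13827 ± 1252 CPM in PC and 6240 ± 336 CPM in RACM (SD, n = 3), a log2 fold change of 1.15 ± 0.18 (SE), which passed in edgeR (adjusted p = 0.00787), or 2.22-fold with a 95% interval from 1.66 to 2.96. Within the p numbers the ratio of PC to RACM was 2.17 at p0, 2.06 at p2 and 2.42 at p4. The counts are per gene, so the many splice forms of Tpm1 were not separated. Tpm1 is also a gene of smooth muscle, and of 10 smooth muscle and pericyte markers tested 3 were higher in PC and 2 lower by edgeR. Myh11, the smooth muscle myosin, held from 21.7 to 33.0 CPM in PC and from 1.73 to 8.26 CPM in RACM, whereas Tagln held from 2.15 to 4.54 CPM in PC and from 2.35 to 4.47 CPM in RACM. Summed over all 11 listed, tested or not, these markers held from 231 to 269 CPM in PC and from 184 to 490 CPM in RACM. Their part in the difference of Tpm1 was not tested.

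Sequence before a RefSeq start is shown for the genes that passed in either fit, Tpm1 here and Tpm4 and Tnnt2 with their values, and for the troponin I pair whose balance was compared. It is the part of the 250 bases before that start that holds no annotated exon (GRCm38.p6, which is mm10), written 5′ to 3′ on the gene's strand. Of the 10 genes, 9 matched an entry of the RefSeq promoter table. Capitals mark matches, on either strand, to 1 of 6 motifs. The TATA box was searched as TATAAA, which 12.4% of the 32851 promoters of that length hold. A TEAD type site was searched as CATTCC, held by 12.6%. The letters AGATAA, a site that Gata4 and its relatives bind, are held by 9.99%. The T-box type site AGGTGT is held by 11.8%, the CArG box by 1.47% and the MEF2 box by 0.508%. A match describes the letters only, and none of them overlap in the stretches shown. For Tpm1 the stretch is chr9:67049407-67049463, minus strand, and holds none of the motifs. Its RefSeq start, at position 67049213, lies inside the gene's span, and the bases nearest that start are not shown. The full 250 bases before it hold 1 CATTCC, outside the stretch shown.
Tpm1: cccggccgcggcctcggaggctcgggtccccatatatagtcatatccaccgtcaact

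Tpm4, a tropomyosin of the cytoskeleton, was the gene of this set with the largest difference in the other direction. It lies at chr8:72130174-72153142 on the plus strand, and 3.14% of its exon bases are shared with Gm26586 on the opposite strand, and counting ignored strand, so reads there could belong to either gene. PC libraries p0, p2 and p4 held 42.8, 40.9 and 64.4 CPM, and RACM libraries 68.9, 113 and 237 CPM. The groups did not overlap, but PC p4 and RACM p0 were close, and RACM p4 was far above the rest. The log2 fold change was -1.499 ± 0.40 (edgeR adjusted p = 0.0595), with a 95% interval from -2.41 to -0.59, and with the replicate block it was -1.35 (edgeR adjusted p = 0.00908). Without the RACM p4 library it was -0.88 (edgeR adjusted p = 0.133), and without that library and with the block -1.08 (edgeR adjusted p = 0.00159). RACM p4 was highest and RACM p2 next both in Tpm4 and in the fibroblast marker sum given above, and the part of that sum in the difference was not tested. Its RefSeq start in the table, at position 72135288, lies downstream of the first base of the gene in the deposited annotation, so the stretch before it, chr8:72135050-72135228 on the plus strand, is inside the gene's span, and it holds none of the motifs.
Tpm4: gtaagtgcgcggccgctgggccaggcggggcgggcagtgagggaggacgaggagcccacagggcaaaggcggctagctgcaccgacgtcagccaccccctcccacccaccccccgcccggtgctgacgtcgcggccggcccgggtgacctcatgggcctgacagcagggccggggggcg

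The other tropomyosins did not pass in either fit. Tpm2, beta-tropomyosin (chr4:43514711-43523765, minus strand), held 151, 200 and 162 CPM in PC and 206, 223 and 228 CPM in RACM. The groups did not overlap, yet the highest PC library lay only just under the lowest RACM library, and the log2 fold change was -0.36 ± 0.16 (edgeR adjusted p = 0.242), with an interval from -0.72 to 0.0042. Tpm3 (chr3:90072649-90100902, plus strand) held 54.5, 81.2 and 62.1 CPM in PC and 61.1, 90.03 and 123 CPM in RACM. Those groups overlapped, and PC minus RACM was -0.47 ± 0.26 on the log2 scale (edgeR adjusted p = 0.362). Without RACM p4, the library with the highest fibroblast sum, it was -0.20. Tpm3 has a near-identical copy, Tpm3-rs7, listed at 4.19 to 6.90 CPM in PC and 6.15 to 22.8 CPM in RACM, so reads could be split between them and the value of Tpm3 is uncertain.

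Tnnt2, cardiac troponin T, had the highest mean level of the 10 genes in both cell types and stood higher in every PC library than in any RACM library. It lies at chr1:135836354-135852260 on the plus strand. PC libraries p0, p2 and p4 held 19121, 16476 and 15988 CPM, and RACM libraries 12645, 10065 and 7196 CPM. RACM p4 was lowest of all 6, the library with the highest fibroblast and macrophage sums. The means were 17195 ± 1685 CPM and 9968 ± 2726 CPM, which is 0.79 ± 0.24 on the log2 scale (edgeR adjusted p = 0.0936), and 0.82 with the replicate block (edgeR adjusted p = 0.0109). The ratio within p numbers was 1.51 at p0, 1.64 at p2 and 2.22 at p4. Without RACM p4 the log2 fold change was 0.60 (edgeR adjusted p = 0.137), and 0.65 with the block as well (edgeR adjusted p = 0.00023). The 250 bases before its first start, chr1:135836084-135836333 on the plus strand, hold 1 AGATAA, read on the opposite strand, and 1 CATTCC.
Tnnt2: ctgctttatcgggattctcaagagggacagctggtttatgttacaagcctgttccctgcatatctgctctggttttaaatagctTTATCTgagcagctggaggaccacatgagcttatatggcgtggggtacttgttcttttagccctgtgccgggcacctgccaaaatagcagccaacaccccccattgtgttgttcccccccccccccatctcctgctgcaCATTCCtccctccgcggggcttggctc

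The skeletal muscle forms of troponin T were low in both cell types. Tnnt1, the slow skeletal form (chr7:4504570-4516382, minus strand), held 61.9, 78.4 and 69.4 CPM in PC and 59.4, 78.8 and 32.2 CPM in RACM. The groups overlapped at p0 and p2, where the cell types were nearly equal, and RACM p4 alone was low; the log2 fold change was 0.30 ± 0.29 (edgeR adjusted p = 0.63), with an interval from -0.35 to 0.96. It was 0.02 without RACM p4 and 0.61 without RACM p2. Tnnt3, the fast skeletal form (chr7:142498836-142516009, plus strand), had 92, 52 and 16 counts in PC and 76, 71 and 62 counts in RACM. These are 5.13, 2.94 and 0.756 CPM in PC and 5.25, 4.25 and 2.98 CPM in RACM, overlapping groups that differed by -0.50 ± 0.65 on the log2 scale (edgeR adjusted p = 0.738). With 1 library left out that difference lay between -1.17, without PC p0, and -0.03, without PC p4.

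Neither troponin I gene passed the test in either fit. Tnni1, the fetal form (ENSMUSG00000026418, chr1:135779434-135810989, plus strand), held 1202, 1040 and 860 CPM in PC, in the order p0, p2, p4, against 1040, 955 and 684 CPM in RACM. The p4 library was lowest in both cell types and the groups overlapped, with a difference of 0.21 ± 0.21 on the log2 scale (edgeR adjusted p = 0.64; interval from -0.26 to 0.68). With 1 library left out it lay between 0.05, without RACM p4, and 0.34, without RACM p0. Tnni3, the adult cardiac form (ENSMUSG00000035458, chr7:4518305-4524229, minus strand), held 2637, 2312 and 2999 CPM in PC and 2560, 1874 and 1707 CPM in RACM. PC p4 was the highest library and RACM p4 the lowest, the groups overlapped, and the log2 fold change was 0.37 ± 0.21 (edgeR adjusted p = 0.362; interval from -0.09 to 0.84), or 0.57 without RACM p0. Of the exon bases of Tnni3, 4.17% are shared with Dnaaf3, also on the minus strand. The stretch before the first Tnni1 start, chr1:135799171-135799401 on the plus strand, holds 1 AGGTGT. That before the Tnni3 start, chr7:4522529-4522694 on the minus strand, holds no match. The full 250 bases before the Tnni3 start also hold 1 AGGTGT, outside the stretch shown, so the genes do not differ in this motif. Both stretches lie inside the spans given above, before RefSeq starts that are downstream of the first annotated base.
Tnni1: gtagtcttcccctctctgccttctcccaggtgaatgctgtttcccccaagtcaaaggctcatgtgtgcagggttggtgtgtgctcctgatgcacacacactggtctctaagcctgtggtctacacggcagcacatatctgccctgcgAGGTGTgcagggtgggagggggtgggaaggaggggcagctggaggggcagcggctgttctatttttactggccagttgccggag
Tnni3: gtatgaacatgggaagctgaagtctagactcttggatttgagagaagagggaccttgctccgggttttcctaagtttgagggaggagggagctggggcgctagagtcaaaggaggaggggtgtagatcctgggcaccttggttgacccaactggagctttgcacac

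Tnnc1, troponin C of cardiac and slow muscle (chr14:31208312-31211729, plus strand), held 1544, 1371 and 1694 CPM in PC and 1412, 1160 and 1192 CPM in RACM. PC p2 lay below RACM p0, so the groups overlapped, and the log2 fold change was 0.29 ± 0.17 (edgeR adjusted p = 0.382; interval from -0.09 to 0.67). Tnnc2, the fast skeletal form, had counts in RACM p2 alone and was not tested.

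**Figure D2:**
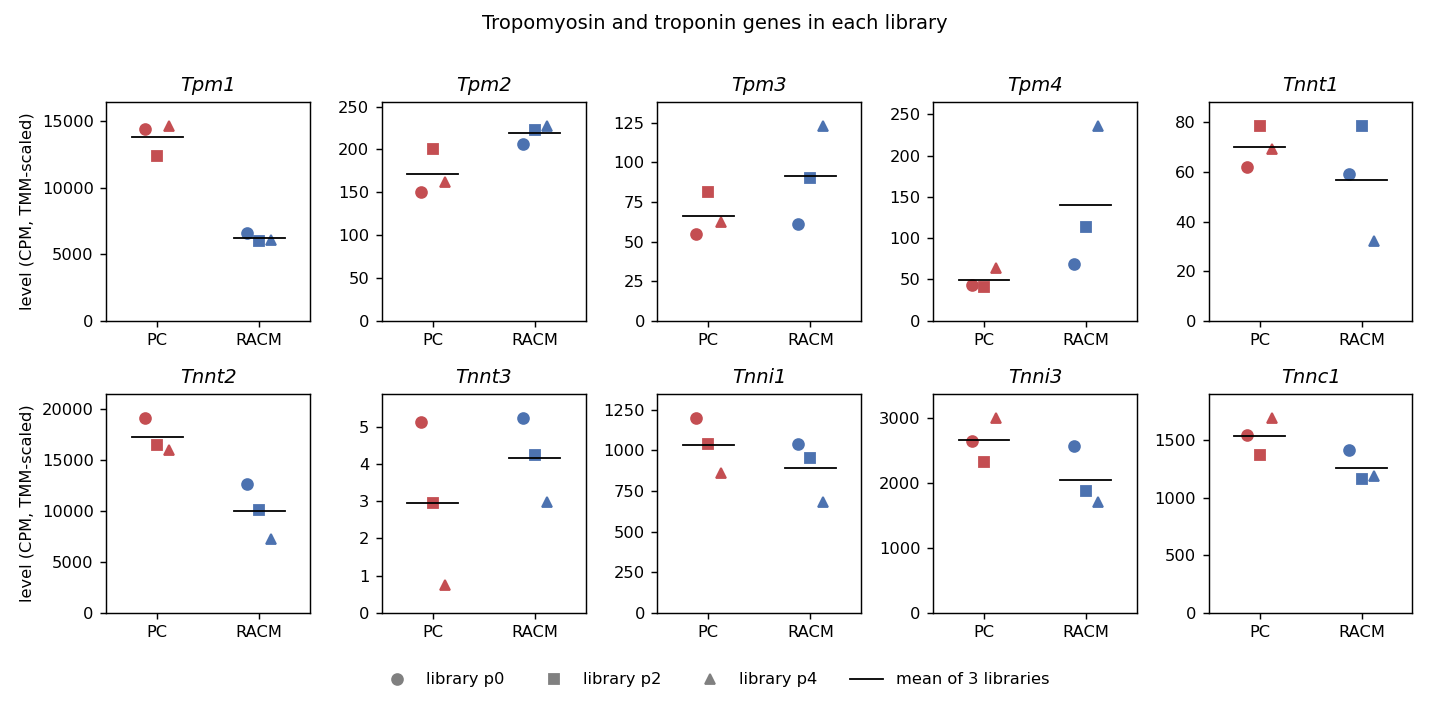
Level of each gene in each library, in TMM-scaled CPM on linear axes that start at 0, with PC in red, RACM in blue, a marker for each p number and a line at the mean of 3 libraries. The PC libraries of Tpm1, between 12390 and 14688, all sit above the RACM libraries, between 6021 and 6627, and RACM p4 is the highest point for Tpm4 and the lowest for Tnnt2.

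The genes were also set against each other per length, as CPM for each kilobase of exon (RPKM). The length is that of all annotated exons of a gene merged, 7752 bases for Tnnt2, 6485 for Tpm1, 3600 for Tnni1 and 1041 for Tnnc1. Where transcripts use only some of these exons, RPKM comes out too low. Orders, sums and shares per length therefore depend on this length and are uncertain between genes. In PC the order of mean RPKM was Tnnt2 at 2218 ± 217, Tpm1 at 2132 ± 193, Tnnc1 at 1476 ± 155, Tnni3 at 1284 ± 167 and Tnni1 at 287 ± 47.6. The libraries of Tnnt2 and Tpm1 overlapped, as did those of Tnnc1 and Tnni3. Below these stood Tpm2 at 58.7 ± 8.95, Tnnt1 at 31.7 ± 3.75, Tpm4 at 11.6 ± 3.06, Tpm3 at 10.8 ± 2.26 and Tnnt3 at 1.86 ± 1.38 RPKM, of which Tpm4 and Tpm3 overlapped each other and the other neighbours did not. In RACM the first 4 were Tnnt2 at 1286 ± 352, Tnnc1 at 1205 ± 132, Tnni3 at 992 ± 219 and Tpm1 at 962 ± 51.8 RPKM, and each overlapped the next. Tpm1 was thus near Tnnt2 in PC and near Tnni3 in RACM. In RACM Tnni1 followed at 248 ± 51.7, Tpm2 at 75.3 ± 3.96, Tpm4 at 32.7 ± 20.3, Tnnt1 at 25.8 ± 10.6, Tpm3 at 15.0 ± 5.12 and Tnnt3 at 2.63 ± 0.72 RPKM, with overlaps from Tpm4 to Tpm3.

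Summed by subunit, tropomyosin stood at 2213 ± 185 RPKM in PC and 1085 ± 36.4 RPKM in RACM. Troponin T stood at 2252 ± 216 and 1314 ± 359 RPKM, troponin I at 1572 ± 146 and 1240 ± 263 RPKM, and troponin C at 1476 ± 155 and 1205 ± 132 RPKM in the same order. By this measure, with merged exons as the length, tropomyosin and troponin T stood above troponin I and C in PC. In RACM the 4 sums lay closer together.

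The balance of Tnni1 and Tnni3 was compared as the share of Tnni1 in their sum per length. It was 20.7%, 20.5% and 14.1% in PC, in the order p0, p2, p4, against 18.9%, 22.6% and 18.7% in RACM. PC p4 was the lowest of all, with a 95% Clopper-Pearson interval from 13.9% to 14.3% that covers counting error only, and the other 5 lay between 18.7% and 22.6%. The means were 18.4% ± 3.75 in PC and 20.1% ± 2.22 in RACM, a difference of -1.61 percentage points (exact permutation test, 2-sided, p = 0.6; 0.6 adjusted over 3 shares). Leaving out 1 library moved the difference to between -2.75 points, without PC p0, and 0.55 points, without PC p4, and as shares of counts it was -2.21 points. The ratio of Tnni3 to Tnni1 per length was 3.83, 3.88 and 6.08 in PC and 4.29, 3.42 and 4.36 in RACM, so Tnni3 was the larger of the pair in every library.

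Within tropomyosin, Tpm1 made up 96.9%, 95.4% and 96.6% in PC and 91.3%, 88.7% and 85.9% in RACM, and the groups did not overlap. The means, 96.3% ± 0.78 and 88.6% ± 2.73, differed by 7.65 points (exact permutation test, 2-sided, p = 0.1, the smallest that 3 against 3 allows; 0.3 adjusted over the 3 shares). As shares of counts, with no scaling by length, they differed by 4.70 points. The rest of RACM tropomyosin was Tpm2 at 6.95% ± 0.54, Tpm4 at 3.02% ± 1.87 and Tpm3 at 1.39% ± 0.48, against 2.69% ± 0.65, 0.52% ± 0.11 and 0.50% ± 0.15 in PC. Within troponin T, Tnnt2 made up 98.5% ± 0.24 in PC and 97.9% ± 0.63 in RACM. The share of Tnnt1 was 1.13%, 1.65% and 1.503% in PC and 1.62%, 2.67% and 1.55% in RACM, overlapping groups that differed by -0.52 points (exact permutation test p = 0.3; 0.45 adjusted). That difference was -0.16 points without RACM p2, and -0.15 points as shares of counts.

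**Figure D3:**
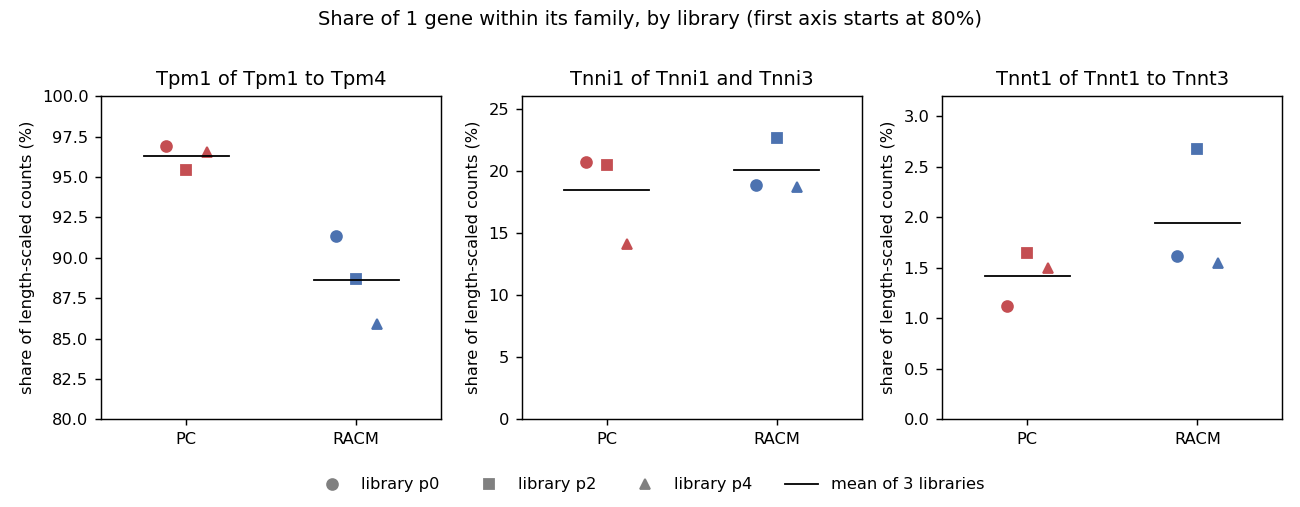
Share of Tpm1 in tropomyosin, of Tnni1 in troponin I and of Tnnt1 in troponin T, in percent of length-scaled counts, 1 point a library and a line at the mean of 3; the first axis starts at 80%. The Tpm1 shares of PC, from 95.4% to 96.9%, lie above those of RACM, from 85.9% to 91.3%, while PC p4 at 14.1% is the lowest Tnni1 share.

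Across the p numbers, 0 of the 10 genes passed the edgeR F test in a model with cell type, where 0.00555% of all genes did, and 0 passed with the number as a straight line, where 0.0333% did. At an unadjusted p below 0.05 the F test had 3, Tpm4, Tnni1 and Tnnt2, and the straight line 5, these and Tpm3 and Tnnt3. The share of all genes below that unadjusted cut was not counted, so whether these counts exceed it is not known. In the F test's place DESeq2 passed 1, Tpm4, and limma-voom 0, where they passed 686 and 170 of all 18015 genes. The log2 difference between p4 and p0 was 1.18 for Tpm4, -0.54 for Tnni1 and -0.53 for Tnnt2 (edgeR adjusted p = 0.242, 0.305 and 0.414). With 1 library left out that of Tpm4 lay between 0.69, without RACM p0, and 1.69, without PC p0, and was 0.78 without RACM p4, while that of Tnnt2 was -0.29 without RACM p4. Tnni1, Tnnt2 and the low Tnnt3 were in falling order from p0 to p4 in both cell types, by the values given above. In RACM only, Tpm2, Tpm3 and Tpm4 were in rising order and Tnni3 in falling order. The share of all genes with such orders was not counted.

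A difference between PC and RACM in the slope over the p number was found for 0 of the 10 genes by edgeR, DESeq2 and limma-voom, and for 0% of all genes by edgeR. At an unadjusted p below 0.05 there was 1, Tpm4, whose slope on the log2 scale was lower in PC by 0.30 per unit of the number, coded as -0.30 (edgeR adjusted p = 0.9998). Here too the share of all genes at the unadjusted cut was not counted. The Tnni1 share changed by -6.60 points from p0 to p4 in PC and by -0.22 points in RACM (exact permutation of the numbers within cell types for the mean, p = 0.278, where the smallest possible is 0.0556; 0.417 adjusted over 3 shares). The Tpm1 share changed by -0.36 points in PC and by -5.46 points in RACM (exact permutation p = 0.167; 0.417 adjusted). With 1 library for each number and cell type, the number cannot be told apart from the library.

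**Figure D4:**
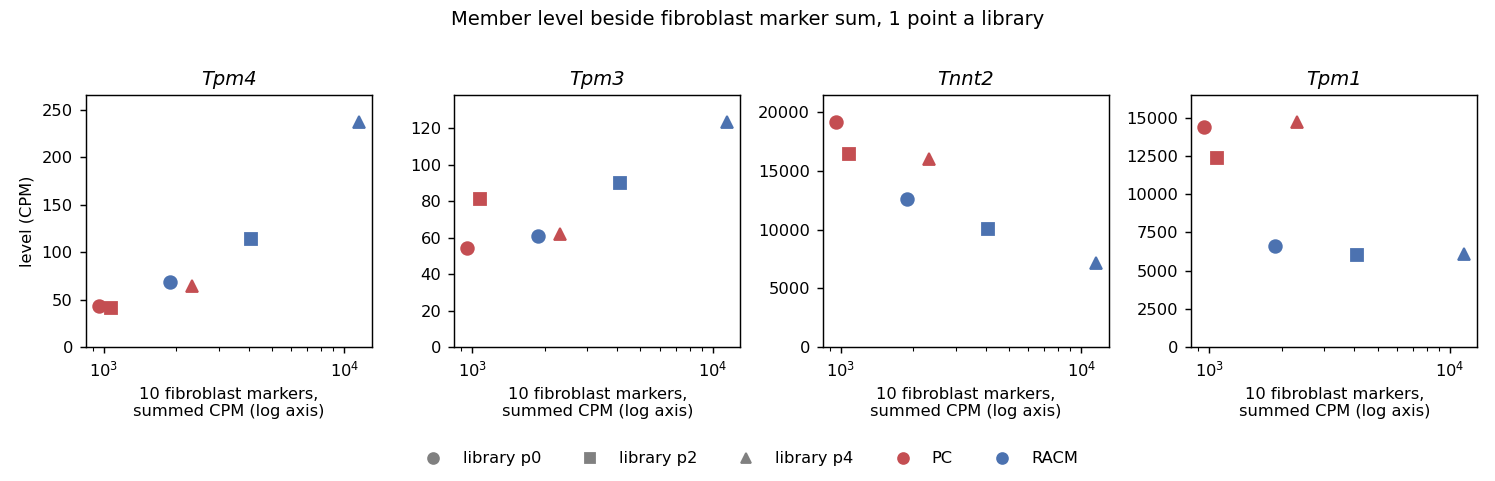
Level of Tpm4, Tpm3, Tnnt2 and Tpm1 in CPM against the summed CPM of 10 fibroblast markers on a log axis, 1 point a library, PC in red and RACM in blue. RACM p4, at a sum of 11485, is highest for Tpm4 and Tpm3 and lowest for Tnnt2. For Tpm1 the 3 RACM libraries lie between 6021 and 6627 over sums from 1877 to 11485. The part of the fibroblast sum in the level of any of these genes was not tested.

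The markers of other cell types were set beside these genes. Of the 10 fibroblast markers 3 were lower in PC by edgeR and 8 with the replicate block, none was at 0, and their sums overlapped, since PC p4 held 2324 CPM and RACM p0 held 1877 CPM. That pair was picked after the values were seen and joins libraries of different p number. Its macrophage sums were not alike, at 49.6 CPM in PC p4 and 173 CPM in RACM p0. In that pair Tpm1 was at 14688 CPM in PC p4 and 6627 CPM in RACM p0. Tnnt2 was at 15988 and 12645 CPM, and Tpm4 at 64.4 and 68.9 CPM.  Macrophage markers were lower in PC for 8 of 10 by edgeR and for 10 with the block, with C1qa at 0 in PC p2 and Fcgr1 at 0 in PC p0, and the part of either list in any of these differences was not tested.

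Genes that work with the thin filament regulators were taken by list, and their counts stand beside the 7.27% of all genes that passed in edgeR and the 11.6% with the replicate block. Of 18 genes for actins and thin filament assembly, 0 were higher and 1 was lower in PC by edgeR, with a median log2 fold change of 0.28 (0.0064 for all genes), and 4 were higher and 1 lower with the replicate block. Tmod3, a tropomodulin that caps filament ends outside muscle sarcomeres as well, was the lower one. It held 18.1, 19.4 and 13.6 CPM in PC and 25.6, 44.6 and 79.4 CPM in RACM, highest in RACM p4 like the fibroblast sum, whose part was not tested (log2 fold change -1.55, edgeR adjusted p = 0.0395). Actc1, cardiac actin, held 22168, 16412 and 20157 CPM in PC and 13238, 8804 and 10006 CPM in RACM, groups that did not overlap and differed by 0.87 ± 0.23 on the log2 scale (edgeR adjusted p = 0.0555, and 0.004 with the block). Neb, which encodes nebulin, and Acta2, smooth muscle actin, had log2 fold changes of 0.83 and 1.48 (edgeR adjusted p = 0.0897 and 0.0909, and 0.0184 and 0.00991 with the block).

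Of 14 thick filament genes tested 1 was higher and 1 lower by edgeR, with a median of 0.19. Myl9, a regulatory myosin light chain, was higher in PC (1839 ± 222 against 1158 ± 3.51 CPM, adjusted p = 0.0413), and Mylk3, the cardiac myosin light chain kinase, was lower (212 ± 21.9 against 376 ± 36.5 CPM, adjusted p = 0.0163). Myl3 and Myl7, further light chains, had log2 fold changes of -0.82 and 0.50 (edgeR adjusted p = 0.111 and 0.15). With the replicate block 1 was higher and 2 were lower, Myl3 among them (edgeR adjusted p = 0.0428).

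Among 11 kinases and phosphatases that act on troponin I, 2 were higher and 0 lower by edgeR, with a median of 0.28. Prkaca, the catalytic subunit of protein kinase A, which phosphorylates cardiac troponin I, held 166, 222 and 217 CPM in PC and 122, 114 and 112 CPM in RACM. Prkg1, the cGMP-dependent kinase, held 143, 123 and 109 CPM in PC and 54.8, 67.5 and 65.4 CPM in RACM. Neither gene's groups overlapped, and the log2 fold changes were 0.80 ± 0.16 for Prkaca and 0.997 ± 0.17 for Prkg1 (edgeR adjusted p = 0.0217 and 0.00985). Tnni3k and Prkacb had 0.54 and 0.40 (edgeR adjusted p = 0.067 and 0.175). With the replicate block 3 were higher, Tnni3k among them (edgeR adjusted p = 0.0355).

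Of 11 splicing regulators of troponin T and tropomyosin tested, 0 passed in edgeR and 1 with the block, Ptbp1, which was lower in PC (41.4 ± 10.3 against 85.5 ± 33.1 CPM, edgeR adjusted p = 0.0709, and 0.0297 with the block). Celf1, Rbm38 and Celf2 had log2 fold changes of 0.36, 0.35 and -0.30. Of 18 transcription factors of sarcomere genes, 1 was higher and 2 were lower by edgeR, with and without the block, with a median of 0.23. Mrtfb, a coactivator of serum response factor, was higher in PC (257 ± 36.2 against 146 ± 24.0 CPM, adjusted p = 0.0293). Nkx2-5, a factor of working myocardium, and Hopx were lower (12.5 ± 0.92 against 34.2 ± 15.0 CPM, adjusted p = 0.025, and 95.9 ± 5.65 against 169 ± 34.7 CPM, adjusted p = 0.0272). Mef2d had a log2 fold change of 0.45 (adjusted p = 0.192).

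The genes whose pattern was most like that of Tpm1 were sought among 9281 genes of at least 10 CPM, by the root mean square difference of log2 CPM over the 6 libraries, each gene centred on its mean. For Tpm1 they were Cnn1, calponin of smooth muscle, at 0.0744, Rgs3 at 0.0831 and Nid2 at 0.0852. Cnn1 held 66.1, 51.1 and 59.0 CPM in PC and 29.3, 27.3 and 27.6 CPM in RACM. For Tnni1 they were Kif1b at 0.0207, Chic1 at 0.0545 and 2900026A02Rik at 0.0631. Kif1b, a kinesin, held 523, 465 and 393 CPM in PC and 463, 425 and 307 CPM in RACM, in falling order over the numbers in both cell types as for Tnni1.

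Troponin I and troponin T genes lie in pairs in the mouse genome. On chromosome 1, Tnni1 and Tnnt2 are 25.4 kb apart with Lad1 between them, and Tnnt2 passed with the block where Tnni1 did not. On chromosome 7, Tnnt1 and Tnni3 are 1.9 kb apart with no gene between, and stood at 31.7 ± 3.75 and 1284 ± 167 RPKM in PC. Tnni2, the fast skeletal troponin I, and Tnnt3 are 54.4 kb apart with Lsp1 between, and Tnni2 held from 3.17 to 4.52 CPM in PC and from 2.12 to 4.91 CPM in RACM (log2 fold change 0.04, edgeR adjusted p = 0.975). Whether the genes of a pair differ from each other in their fold changes was not tested.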

How the data were processed

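RNA of sorted cells was amplified with a NuGEN kit and sequenced as 100-base pairs, per the labels' protocols. The deposited values are raw counts of fragments per gene over exons of an mm10 annotation, made by the authors with featureCounts 2.0.1 without a strand option, per the file headers. Per the submitters' processing notes, Trimmomatic, HISAT2 and edgeR were also used, with no version given. The exon length that scales RPKM comes from the same table, per the file headers. The series also has 7 ATAC-seq samples, not used here.

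Of 55487 gene IDs, 55141 matched a symbol. The genes that filterByExpr kept (set to a minimum of 10 counts and a total of 15, by cell type), 18015 in all, were TMM-scaled, and edgeR 4.0.16 gave the tests in R 4.3.3 (quasi-likelihood, 2-sided, Benjamini-Hochberg over all genes, threshold 0.05). The fits were tested on simulated data. The 10 genes, the gene lists and the tests were chosen with earlier results of these data known. Besides the 10 genes, up to 4 genes of smallest p per list with at least 10 CPM are named, the 3 nearest patterns, and marker genes beside a result; Tnni2, Tnnc2, Tpm3-rs7 and the pair of libraries matched on fibroblast sum were picked after their values were seen. Shares were tested by exact permutation in scipy 1.17.1.

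Alignment files of p0 bore no number before renaming, per the file headers. Across genes, the distance of a PC library from the PC mean correlated with that of the RACM library of the same number by 0.219 (p0), 0.306 (p2) and 0.281 (p4), all above 0.1. On that ground the numbers were treated as pairs, which no label states. Replicates differed by a chi-square of 29.5 to 74.6 per degree of freedom, so no library was a copy of another. The common biological coefficient of variation was 0.399. Amplified reads are not independent molecules, so intervals on shares cover counting error only. CT010467.1, a row related to ribosomal RNA, took from 9.6% to 13.9% of counts. Alternatives were RLE and upper-quartile scaling, library sizes without that row, no filter, a stricter filter (5 CPM in all 3 libraries of PC or of RACM), DESeq2 1.42.0, limma-voom 3.58.1, shares of counts with no scaling by length, the replicate block, the number as a straight line, both p4 libraries left out, and each library left out.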

Additional observations from a re-analysis of the deposited data

How the results depend on the processing

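Tpm1 passed under all 16 alternatives, with log2 fold changes from 1.06 to 1.23 and adjusted p from 3.79e-11 to 0.0475. The count of the 10 genes that passed between PC and RACM was 1 in edgeR, where 1309 of all 18015 genes tested passed. It was 3 with no filter (2339 of all 33066), 3 by DESeq2 (2304 of 18015) and 3 with the p number as a replicate block (2082 of 18015). With the block and without the RACM p4 library, chosen after seeing the data, it was also 3 (2215 of 18882). The stricter filter gave 2 (1173 of 10845), and limma-voom gave 2 (1068 of 18015). With 1 library left out in turn the count was from 1 to 3, with 3 without RACM p0 (1338 of 19443). The count over all genes thus also changed with the setting. The added ones were Tpm4 and Tnnt2, and among the 10 genes the replicate block changed no other call. Paired sign flips within p numbers gave exact p = 0.5, 0.25 and 0.25 for the shares of Tnni1, Tnnt1 and Tpm1, where 0.25 is the smallest possible.

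The count for the p number, 0 in edgeR, was 1 with no filter, 1 by DESeq2 and from 0 to 2 with 1 library left out: Tpm4 without PC p0, PC p2 or PC p4, and Tnnt2 as well without PC p4. Calls over all genes rose in those fits too. They were 257 of 19340 without PC p0, 376 of 19318 without PC p2 and 229 of 19258 without PC p4. Without RACM p0, p2 or p4, where 0 of the 10 genes passed, they were 77 of 19443, 346 of 18872 and 458 of 18882. The count of the 10 genes for the difference in slope was 0 under all 14 alternatives. No replicate block could be fitted for the number itself, because it is the term tested. For the difference in slope a fit with the replicate block, added after seeing the data, has 1 residual degree of freedom and also passed 0 of the 10 genes, with 31 of all genes called. The log2 fold change of Tnnt1 was -0.0034 without both p4 libraries, and the Tnni1 share difference, -1.61 points, ran from -2.75 to 0.55 points with 1 library left out. The causes were not tested. Over all genes the F test of the number called 1 gene in edgeR, 686 by DESeq2, 170 by limma-voom and 720 with no filter. At 16 counts in PC p4, Tnnt3 is at the limit of depth, and it did not pass the stricter filter.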

Other observations

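Genes known from skeletal muscle were not uniform in these cells. Of 15 such markers 5 were tested, and 2 were higher and 0 lower in PC by edgeR, against 3.69% higher and 3.57% lower among all genes tested. The median log2 fold change of the 5 was 0.93, against 0.0064 for all genes tested. Summed, the 15 markers overlapped, at 357, 391 and 392 CPM in PC and 377, 332 and 183 CPM in RACM. By that sum the 2 that passed, given next, do not stand for the list. Pvalb, a calcium-binding protein of fast muscle, held 32.0, 35.0 and 48.0 CPM in PC and 6.01, 4.01 and 2.36 CPM in RACM (log2 fold change 3.23 ± 0.36, adjusted p = 0.00123). Myh8, the perinatal skeletal myosin, held 84.3, 89.6 and 94.2 CPM in PC and 42.4, 29.9 and 41.9 CPM in RACM (1.23 ± 0.18, adjusted p = 0.00558). PC and RACM libraries did not overlap for either gene. Of the factors that drive the skeletal lineage, Myod1 was at 0 in all 6 libraries, while Myog had 17, 20 and 3 counts in PC and 1, 0 and 1 in RACM, too few to be tested. The skeletal troponins Tnnt3 and Tnni2 stood below 6 CPM in both cell types.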
